A study of Homo sapiens with 2 samples.

Results

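SFTPB, SFTPD and LPCAT1 are 3 genes of the pulmonary surfactant system of alveolar type II cells, and their mRNA levels were read in A549 cells after silencing of p62/SQSTM1. They were chosen by name from the probe sets that carry exactly 1 gene symbol in the platform annotation, with earlier results of these data known. All 3 were on the array with 1 probe set each, among 14884 named genes read by 16098 of the 48226 probe sets. A549 is an established human lung adenocarcinoma line that is widely used as a model of the alveolar type II cell. The study set 1 array of A549 cells given a control siRNA (siCONTROL) against 1 array of A549 cells given an siRNA that targets p62/SQSTM1 (siP62). An siRNA guides the cleavage of an mRNA of matching sequence, and p62 is an autophagy receptor that binds ubiquitin. Total RNA was extracted with Trizol 24 hours after transfection, and 100 ng of it was labelled by a whole-transcript protocol. Both groups received an siRNA and standard culture, and neither the siRNA sequences nor the number of cultures is given in the sources used here. With 1 array per group there was no replicate and no error, so no test was made and no p-value is given.

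Pulmonary surfactant is a film of phospholipid and protein that lowers surface tension at the air-liquid interface of the alveoli. Type II cells synthesise its lipids, which are rich in phosphatidylcholine with saturated acyl chains, store them with the hydrophobic surfactant proteins in lamellar bodies, which are organelles related to lysosomes, and secrete them. SFTPB encodes surfactant protein B, a hydrophobic protein with a saposin fold that is needed to pack lamellar bodies and to spread the film. SFTPD encodes surfactant protein D, a secreted collectin that binds sugars on microbes and takes part in surfactant turnover. LPCAT1 encodes a lysophosphatidylcholine acyltransferase that makes saturated phosphatidylcholine for surfactant and is also expressed in many tumours. The transcription factors NKX2-1, FOXA1, FOXA2 and members of the C/EBP and AP-1 families are known regulators of surfactant protein genes.

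The windows around the RefSeq start sites of the 3 genes are shown because SFTPB and SFTPD were lower, and LPCAT1 was not, in the siP62 array. Each holds 250 bases before the start site and 50 after it, 5′ to 3′ on the gene's strand, in GRCh38.p14. SFTPB has 2 listed start sites, at chr2:85668692-85668991 (the upstream one) and chr2:85668150-85668449, both on the minus strand. The window of SFTPD is chr10:79949056-79949355 and that of LPCAT1 is chr5:1523911-1524210, both on the minus strand. Capitals mark every match to 6 motifs searched on both strands, which were picked after the sequences had been seen.
SFTPB upstream start: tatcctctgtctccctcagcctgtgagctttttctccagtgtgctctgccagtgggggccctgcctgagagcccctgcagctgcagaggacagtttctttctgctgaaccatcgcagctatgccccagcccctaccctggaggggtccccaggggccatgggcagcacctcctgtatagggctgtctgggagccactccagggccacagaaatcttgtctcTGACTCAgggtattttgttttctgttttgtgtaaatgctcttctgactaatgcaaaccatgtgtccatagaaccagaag
SFTPB downstream start: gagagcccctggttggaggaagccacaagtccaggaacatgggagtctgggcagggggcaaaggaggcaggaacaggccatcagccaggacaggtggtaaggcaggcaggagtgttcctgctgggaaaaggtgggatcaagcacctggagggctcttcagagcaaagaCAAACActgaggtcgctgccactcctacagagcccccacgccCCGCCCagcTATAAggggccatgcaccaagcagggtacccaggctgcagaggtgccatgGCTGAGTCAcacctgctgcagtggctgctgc
SFTPD: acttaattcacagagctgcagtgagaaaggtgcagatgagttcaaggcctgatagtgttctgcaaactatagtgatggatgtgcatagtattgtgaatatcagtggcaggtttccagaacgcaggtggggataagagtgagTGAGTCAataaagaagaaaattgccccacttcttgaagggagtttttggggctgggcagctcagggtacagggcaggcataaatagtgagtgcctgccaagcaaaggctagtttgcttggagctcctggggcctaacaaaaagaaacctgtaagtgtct
LPCAT1: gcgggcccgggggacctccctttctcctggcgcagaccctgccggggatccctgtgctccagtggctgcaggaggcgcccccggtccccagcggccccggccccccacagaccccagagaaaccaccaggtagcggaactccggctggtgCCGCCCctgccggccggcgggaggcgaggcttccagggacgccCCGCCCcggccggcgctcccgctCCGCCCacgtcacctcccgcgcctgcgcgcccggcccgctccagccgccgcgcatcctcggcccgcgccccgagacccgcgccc

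The motifs were TGTTTG (a FOXA core), CTCAAG (an NKX2-1 core), TGANTCA (AP-1), TGACNNNGC (antioxidant response element core), GGGCGG (GC box) and TATAA (TATA). An AP-1 match lay in both SFTPB windows and in that of SFTPD, and none in that of LPCAT1. It is found in 7.71% of the 35116 promoter windows in the table. The motifs were picked with the sequences and the directions of the differences known, so this split of 3 genes supports nothing. In SFTPD it spans positions -109 to -103 from the start site, and in the upstream SFTPB window -29 to -23. The downstream SFTPB window alone held a FOXA match, at -82 to -77, and a TATA match, at -31 to -27, which 14.9% and 20.4% of all windows hold. Its AP-1 match lay after the start site, at 22 to 28, and overlaps the only antioxidant response element match, at 20 to 28. That motif is held by 13.3% of all windows. The overlapping letters directly follow an atg in the printed window, and no stop codon in its frame follows there. They may thus be coding sequence rather than promoter, which was not checked. GC boxes, held by 45.0% of all windows, occurred 3 times in LPCAT1, once in the downstream SFTPB window and in neither of the others. CTCAAG was in none of the 4 windows and in 12.4% of all. Only exact matches to these letters were counted, so a site for NKX2-1 or another factor with other letters would be missed. The LPCAT1 window was 80.0% G and C with 38 CpG dinucleotides. Those of SFTPB held 55.0% and 61.7% G and C with 1 and 3 CpG, and that of SFTPD 46.7% with 1, against medians of 58.7% and 14 over all windows. A match describes letters only; no binding was measured here.

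The values are log2 expression values per probe set, deposited after RMA according to the submitters' processing notes. The medians of all probe sets were 4.07 (siCONTROL) and 4.02 (siP62). The siRNA target, SQSTM1, read 8.64 (siCONTROL) and 7.30 (siP62) on the log2 scale. Of 5 control genes on the array, differences ran from -0.08 to 0.20. Probe sets differ in how strongly they bind their target, so a place among the probe sets of an array is not an amount of RNA, and no detection call came with the values.

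SFTPB read 5.66 (siCONTROL) and 5.30 (siP62) on the log2 scale. These values lay 1.59 and 1.28 above the median of all probe sets, at percentiles 72.4 and 68.1. SFTPD read 5.85 (siCONTROL) and 5.27 (siP62) on the log2 scale, 1.78 and 1.25 above the median, at percentiles 74.4 and 67.8. Both surfactant protein genes were thus in the upper part of all probe sets, but close to the middle of the probe sets with a gene name, whose medians were 5.35 and 5.37. The siP62 values of both genes lay below those medians. LPCAT1 read 7.72 (siCONTROL) and 7.86 (siP62) on the log2 scale. It lay 3.65 and 3.84 above the median of all probe sets, at percentiles 90.5 and 91.0. All 3 genes were above the median of all probe sets in both arrays, as were 69.1% of the named genes, so this place is common among genes of any kind. In order of log2 value the siCONTROL array gave LPCAT1, SFTPD and SFTPB, and the siP62 array LPCAT1, SFTPB and SFTPD. Since the probe sets differ in binding, this order is not one of RNA amounts.

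**Figure D1:**
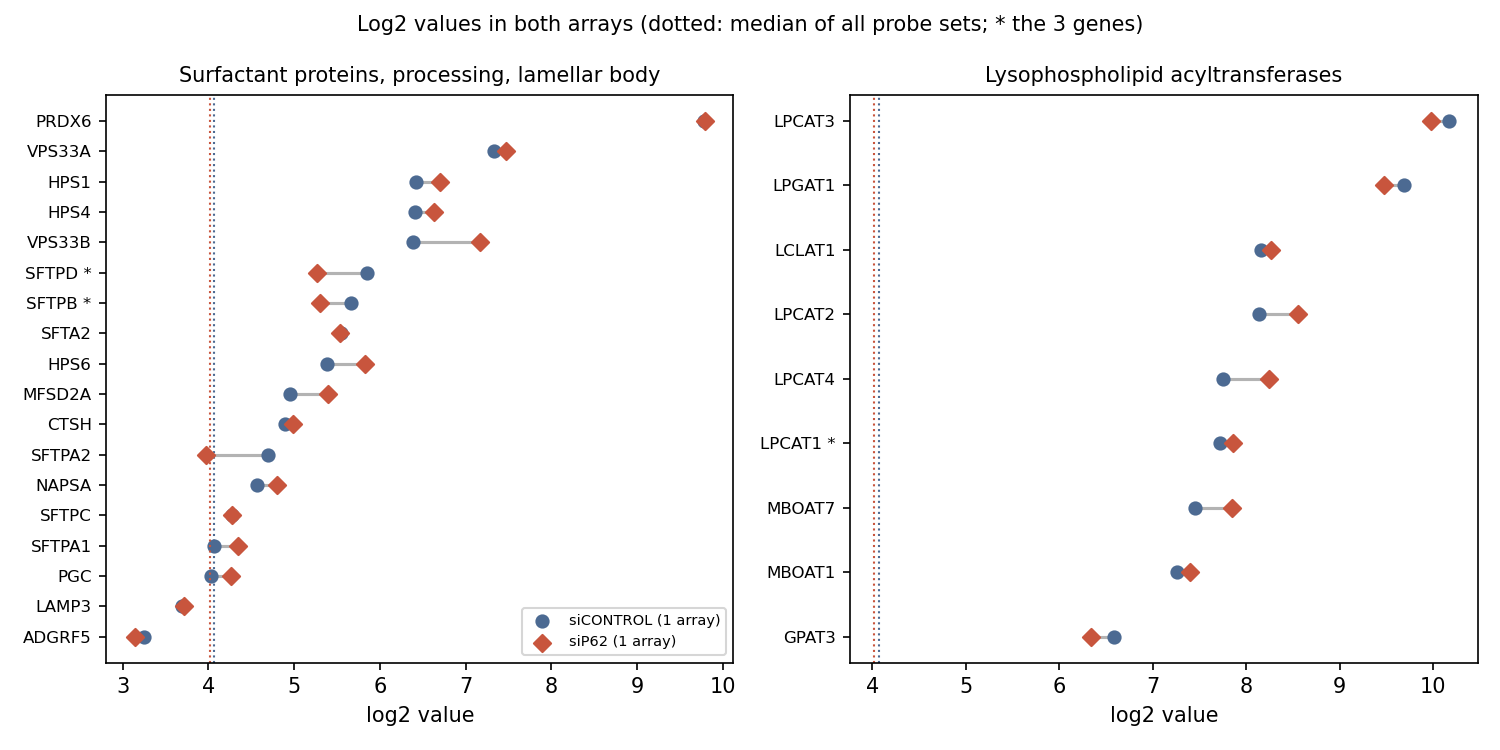
Log2 values in the siCONTROL array (blue circles) and the siP62 array (orange diamonds) of surfactant proteins, their processing enzymes and lamellar body genes (left) and of lysophospholipid acyltransferases (right), 1 array per group, with dotted lines at the medians of all probe sets. SFTPB, SFTPD and LPCAT1 carry an asterisk; SFTPD runs from 5.85 to 5.27, SFTPB from 5.66 to 5.30 and LPCAT1 from 7.72 to 7.86.

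Differences are siP62 minus siCONTROL on the log2 scale. SFTPD differed by -0.58, which is a 1.49-fold lower value, or 66.9% of the control value. Of the 400 named genes nearest to it in mean level, 7 (1.75%) had a difference as low or lower and 20 (5.00%) one as large in either direction. SFTPB differed by -0.36, a 1.28-fold lower value, or 77.9% of the control. Of its own 400 nearest genes, 39 (9.75%) were as low or lower and 89 (22.3%) differed by as much in either direction. The robust SD, which is the median absolute deviation scaled to a normal SD, of the differences in these sets of genes was 0.28 around SFTPB and 0.27 around SFTPD, so SFTPB differed by little more than that spread. LPCAT1 differed by 0.14, a 1.10-fold higher value, against a robust SD of 0.22 around it, and 223 of its 400 nearest genes (55.8%) differed by as much. This spread is one over genes and cannot stand in for replicates.

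None of the 3 genes was at least 1.5-fold lower or higher as deposited, where 2.14% of all named genes were lower and 2.05% higher by that much. SFTPD lay just short of that limit, which is 0.585 on the log2 scale, and it passed the limit once the arrays were centred on the median difference of 0.04 over the genes kept by the filter described next (-0.62), fitted with a loess curve (-0.60) or quantile normalised (-0.59). None was 2-fold lower or higher, as 0.181% and 0.168% of all named genes were. Of the 3 genes 2 had a lower value at all, like 46.3% of all named genes, and 1 a higher value, like 49.2%. Over all named genes the median difference was 0.00, so centring on all of them leaves SFTPD at -0.58, short of 1.5-fold.

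A filter that keeps genes with at least 1 value at or above 5.35, the median of the named probe sets over both arrays, passes all 3 genes. SFTPB and SFTPD passed it through the siCONTROL array alone, so their place among the kept genes is tied to their direction and supports nothing. LPCAT1 passed in both arrays. The share at least 1.5-fold lower was 1.60% over the 7896 genes that passed. Of these genes 41.8% had a lower value at all, against 46.3% of all named genes.

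**Figure D2:**
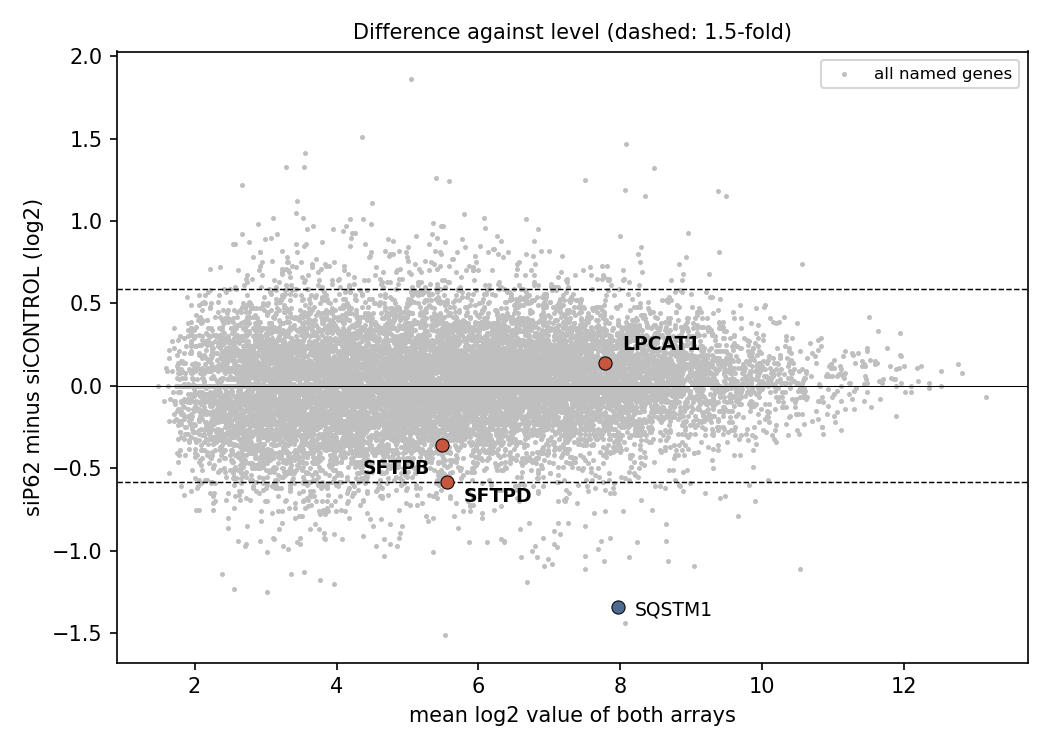
Difference between the arrays (siP62 minus siCONTROL, log2) against the mean log2 value of both arrays for the 14884 named genes (grey), with dashed lines at 1.5-fold. SFTPD (-0.58) and SFTPB (-0.36) lie in the lower part of the cloud of genes of like level, LPCAT1 (0.14) lies inside it, and SQSTM1 (-1.34) lies far below.

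Each of the 3 genes was read by 1 probe set, so no second reading of the same mRNA was at hand. How far probe sets of one gene can part is shown by 68 other genes with more than 1 probe set of mean level between 5 and 6, the range of SFTPB and SFTPD. The differences of their probe sets spanned a median of 0.155. The span was at least as wide as the difference of SFTPB in 21 of the 68 and as that of SFTPD in 7. Some probe sets of 1 gene gave identical values, as in SFTA2 (5.55 and 5.53), and were not merged. The spans may therefore understate how far separate probe sets part.

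Among the surfactant proteins, 6 of 7 listed genes were named on the array, and SFTPB and SFTPD had the highest siCONTROL values of them. SFTPA2, which encodes a chain of the collectin surfactant protein A, read 4.69 (siCONTROL) and 3.97 (siP62) on the log2 scale. Its difference of -0.72 was the largest of the list, but the siP62 value was under the median of all probe sets. SFTPA1, which encodes the other chain, went the other way, from 4.07 to 4.35. The 2 genes are near-identical copies, and whether their probes tell them apart is not known here. SFTPC, which encodes the hydrophobic surfactant protein C and is restricted to type II cells, was at 4.27 in both arrays. SFTA2, a secreted protein gene named for its link with surfactant, was at 5.55 and 5.53 by its brightest probe set, and its 5 probe sets differed by -0.02 to 0.15. The list thus held 4 genes with a lower value, 1 higher and 1 equal, and 1 of the 6 was at least 1.5-fold lower. Its median difference was -0.19, and -0.01 over the 4 genes besides SFTPB and SFTPD. Over all named genes 46.3% were lower and 49.2% higher.

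SFTPD belongs to the collectins and ficolins, lectins with a collagen stem. Of 9 such genes on the array, SFTPD had the highest siCONTROL value. In the siP62 array 6 had a lower, 2 a higher and 1 an equal value, beside 46.3% lower and 49.2% higher over all named genes. The median difference was -0.20. Besides SFTPD and SFTPA2, the lower genes were COLEC11 (5.16 and 4.76), FCN3 (5.43 and 5.19), COLEC10 (3.58 and 3.38) and FCN1 (5.51 and 5.45). FCN2 was at 3.62 and 3.68, and COLEC12 at 2.52 in both. Most of these are not known as genes of alveolar epithelium, and COLEC10, COLEC12 and FCN2 lay below the median of all probe sets.

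SFTPB shares the saposin fold with a small group of proteins, some of which bind lipid. Of 8 genes listed for this fold on the array, SFTPB alone had a lower value in the siP62 array, while 6 had a higher and 1 an equal value. The higher ones include CNPY2, CNPY3 and CNPY4 of the canopy family, which is one of chaperones, so the count is not one of lipid-binding proteins alone. Over all named genes 46.3% were lower and 49.2% higher, and the control genes had a median difference of 0.13. The count was not tested against these shares, and the largest of the other differences was 0.31 for CNPY4. PSAP, the precursor of the lysosomal saposins, was at 11.35 and 11.47. CNPY2 and CNPY3, chaperones of the canopy family, were at 8.43 and 8.55 and at 8.62 and 8.73. PSAPL1 was at 4.80 in both arrays, AOAH at 2.68 and 2.77, and GNLY, the granulysin gene of cytotoxic lymphocytes and the nearest protein-coding neighbour of SFTPB on one side, at 4.65 and 4.72. C2orf68, the nearest on the other side, was at 7.66 and 7.88. Next beyond GNLY, ATOH8 was lower in the siP62 array, at 5.18 and 4.80. Next beyond C2orf68, USP39 was higher, at 7.74 and 7.85. A shared change of the region was not tested. The nearest protein-coding neighbour of SFTPD with a value was TMEM254, at 5.36 and 5.79. Those of LPCAT1 were MRPL36, at 6.93 and 6.88, and, beyond SLC6A3, which was not named on the array, CLPTM1L at 9.21 and 9.37. The neighbours were looked up in RefSeq after the other values had been seen.

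The proteases that mature the precursor of surfactant protein B did not share the lower value of SFTPB. NAPSA, the aspartic protease napsin A, read 4.57 (siCONTROL) and 4.80 (siP62) on the log2 scale. CTSH, the cysteine protease cathepsin H, was at 4.89 and 4.98, and PGC, pepsinogen C, at 4.03 and 4.26. All 3 listed proteases were on the array and higher in the siP62 array by 0.09 to 0.23, which is under the robust SD of 0.27 or 0.28 among genes of like level. All of their values lay below 5.35.

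Of 9 lamellar body and surfactant turnover genes on the array, among 18 listed, 8 had a higher and 1 a lower value in the siP62 array, where 49.2% of all named genes were higher. The median difference was 0.22, against 0.00 over all named genes, 0.04 over those that passed the filter and 0.13 over the control genes. VPS33B, a vesicle fusion factor, was 1.73-fold higher, from 6.38 to 7.17, and was the only one past 1.5-fold. Of its 400 nearest genes in level, 2 were as high or higher. PRDX6, a peroxiredoxin with phospholipase activity towards surfactant lipid, was at 9.78 and 9.79, and VPS33A at 7.33 and 7.47. The next largest differences were those of HPS6, at 5.38 and 5.82, and MFSD2A, at 4.95 and 5.39, both 0.44. HPS1 and HPS4, which form a complex for the biogenesis of lysosome-related organelles, were at 6.42 and 6.70 and at 6.41 and 6.63. LAMP3, a membrane protein of lamellar bodies, was at 3.69 and 3.72, below the median of all probe sets. ADGRF5, a receptor that limits the surfactant pool, was at 3.25 and 3.14. The lipid transporter gene ABCA3 had no named probe set and is not analysed here.

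LPCAT1 was 1 of 9 lysophospholipid acyltransferase genes on the array, all of which passed the filter in both arrays. Of the 9, 6 had a higher and 3 a lower value in the siP62 array, none by 1.5-fold, and the median difference was 0.14, that of LPCAT1 itself. Beside them, 49.2% of all named genes were higher and 46.3% lower, and 41.8% of the genes that passed the filter were lower. LPCAT1 was sixth by siCONTROL value, with values from 6.59 (GPAT3) to 10.17 (LPCAT3) in the list. LPCAT3, which adds polyunsaturated chains, was at 10.17 and 9.98, LPGAT1 at 9.69 and 9.47 and LCLAT1, which remodels cardiolipin, at 8.16 and 8.27. The related LPCAT4 (7.75 and 8.24) and LPCAT2 (8.14 and 8.55) and the phosphatidylinositol enzyme gene MBOAT7 (7.45 and 7.85) differed by more than LPCAT1 and were named after their values were seen. Of 400 genes of like level, 10 were as high as LPCAT4, 22 as LPCAT2 and 25 as MBOAT7.

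The other genes that supply phosphatidylcholine and its fatty acids were also near or above their control values. Of 15 on the array among 23 listed, 10 had a higher and 5 a lower value in the siP62 array, none by 1.5-fold, with a median difference of 0.12. Over all named genes 49.2% were higher and 46.3% lower. Of the 15 genes 14 passed the filter, and 41.8% of all genes that passed it were lower. ACLY, which makes cytosolic acetyl-CoA, was at 11.86 and 12.04, SCD, the stearoyl-CoA desaturase, at 11.85 and 11.89, and FASN, the fatty acid synthase, at 9.30 and 9.47. CHPT1 and CEPT1, which make phosphatidylcholine from CDP-choline, were at 7.12 and 6.98 and at 6.28 and 6.02. The control genes had a median difference of 0.13, close to that of this list and to the 0.14 of the acyltransferases.

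Of 39 listed regulators of surfactant genes, 28 were named on the array, 26 of them above the median of all probe sets in both arrays. In the siP62 array 18 had a higher and 10 a lower value, beside 49.2% and 46.3% of all named genes, with a median difference of 0.06 over the list. The filter passed 25 of the 28. Of all genes that passed it 41.8% were lower, with a median difference of 0.04. NKX2-1, the master regulator of lung epithelium and of SFTPB, read 4.41 (siCONTROL) and 4.24 (siP62) on the log2 scale by its brighter probe set, and 2.42 and 2.52 by the other. It was among the lowest values of the list and not clear of the median of all probe sets. FOXA2 was at 8.19 and 8.25, FOXA1 at 5.77 and 6.06 and GATA6 at 6.99 and 7.10. Their differences were 0.06, 0.29 and 0.11, beside a median of 0.13 over the control genes. Their part in the values of SFTPB and SFTPD was not tested. Of the AP-1 genes, JUN was at 7.17 and 7.40, JUNB at 8.50 and 8.62 and JUND at 8.54 and 8.81. FOS was at 5.95 and 5.46 by 1 probe set and at 5.05 and 5.22 by the other, so its direction was not settled. NFIB, a lung maturation factor, was the only regulator past 1.5-fold, from 9.28 to 8.69, a 1.51-fold lower value, and 5 of its 400 nearest genes were as low. ETV5, which maintains type II cell identity, was at 6.52 and 6.04, and 12 of its 400 nearest genes were as low. STAT3 and TEAD1 had the highest siCONTROL values, at 10.97 and 9.65, with differences of -0.25 and -0.04. The C/EBP genes and NR3C1 had no named probe set and are not analysed here.

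**Figure D3:**
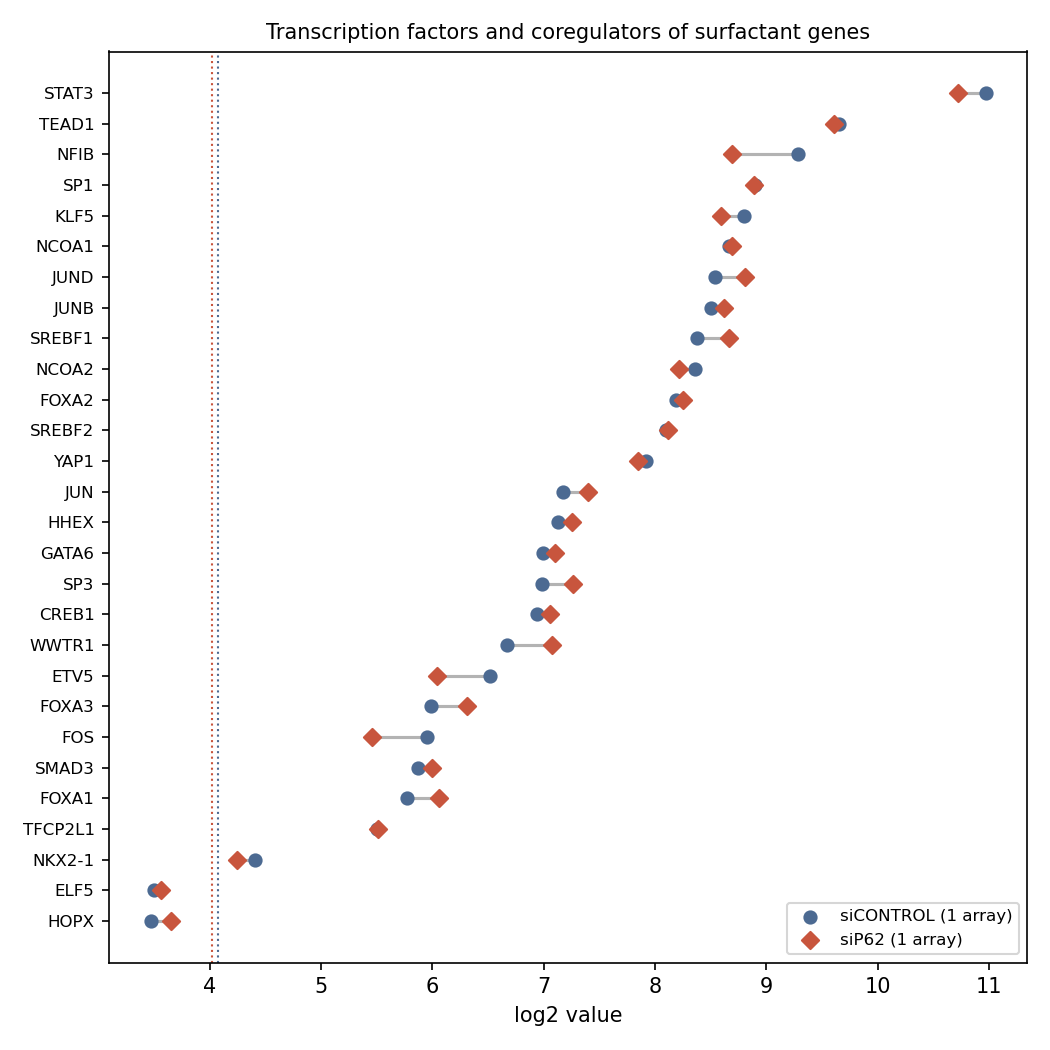
Log2 values of 28 transcription factors and coregulators of surfactant genes in the siCONTROL array (blue circles) and the siP62 array (orange diamonds), 1 array per group, with dotted lines at the medians of all probe sets. NKX2-1 lies next to those medians at 4.41 and 4.24, FOXA2 far above at 8.19 and 8.25, and NFIB shows the largest difference, from 9.28 to 8.69.

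The labelled cell type was set against markers of alveolar type II cells. Of 25 listed markers 21 were named on the array, and 12 of these 21 were above the median of all probe sets in both arrays, a share below the 69.1% of all named genes; the difference was not tested. The siCONTROL values had a median of 4.41, and 4.32 over the 18 markers besides SFTPB, SFTPD and LPCAT1. In the siCONTROL array LPCAT1 had the highest value of the 21, followed by LRRK2 (7.51) and ETV5 (6.52), none of which is restricted to type II cells, and then by SFTPD and SFTPB. SFTA2 (5.55), CPM (5.45) and CLDN18 (4.93) followed, while SFTPC, NAPSA, PGC, LAMP3 and NKX2-1, picked here because they are widely used to define the type II cell, had siCONTROL values of 4.57 or less. These 5 were not clear of the bulk of the probe sets, and other markers of the list were higher. In the siP62 array 12 of the 21 had a lower, 8 a higher and 1 an equal value, with a median difference of -0.09, and -0.055 over the 18 besides the 3 genes. Of all named genes 46.3% had a lower and 49.2% a higher value. The list held 1 gene at least 1.5-fold lower, SFTPA2, and 1 at least 1.5-fold higher, DMBT1, a scavenger receptor-like secreted protein gene, which read 3.63 and 4.25, with 5 of its 400 nearest genes as high or higher.

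Genes of other organs gave a rough scale, on the assumption that a lung line makes little of their mRNA. Whether A549 cells express them was not checked. Of 9 on the array the siCONTROL median was 3.34 and the range 2.24 to 6.15. The genes MBP of myelin (6.15) and PRM2 of sperm (6.09) lay above SFTPB (5.66) and SFTPD (5.85) in that array, and they did so in the siP62 array too, at 5.78 and 6.39. None of the 9 reached LPCAT1. The values of SFTPB and SFTPD therefore overlapped those of some genes known for their work in other organs. The overlap rests on MBP and PRM2, and the rest of the list lay lower, led by GFAP at 5.21 and 5.17. Whether SFTPB and SFTPD were transcribed in these cells cannot be read from the values alone.

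**Figure D4:**
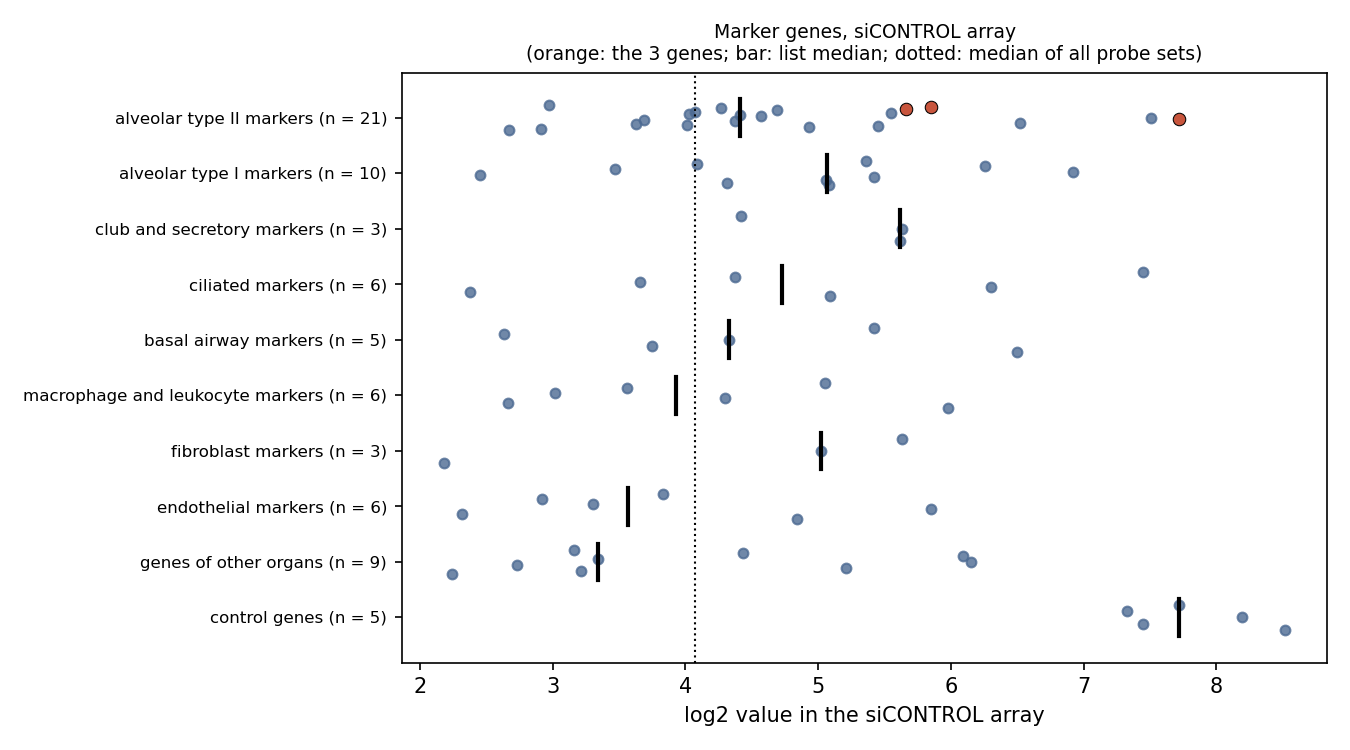
Log2 values in the siCONTROL array of marker genes by cell type, with 1 point per gene, a bar at each list's median and a dotted line at the median of all probe sets (4.07). LPCAT1, SFTPD and SFTPB (orange) are at 7.72, 5.85 and 5.66; the type II list has a median of 4.41, the genes of other organs one of 3.34 and the control genes one of 7.72.

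Markers of other lung and airway cell types were measured on the same arrays. Of 10 alveolar type I markers on the array, 8 were above the median of all probe sets in both arrays, beside 69.1% of all named genes, with a siCONTROL median of 5.07. EMP2 was at 6.92 and 7.22 and LMO7 at 6.26 and 5.50, while AQP5, a water channel named after its value was seen, was at 5.06 and 4.40. In the siP62 array 4 of these 10 markers had a lower and 6 a higher value. LMO7 and AQP5 were at least 1.5-fold lower, as were 2.14% of all named genes. The 3 club and secretory markers on the array were TFF3 (5.63 and 5.53), AGR2 (5.62 and 5.93) and WFDC2 (4.42 and 3.87). They did not include the secretoglobins that define club cells. Of 6 ciliated markers, 3 were above the median in both arrays, with TPPP3 at 7.45 and 7.58, the values of the control gene GAPDH, and FOXJ1 at 6.30 and 6.46. In the siP62 array 3 of the 6 were lower and 3 higher. TEKT1, at 4.37 and 3.61, was 1.69-fold lower and the only one past 1.5-fold. Of 5 basal markers, 3 were lower and 2 higher. DLK2 was at 6.50 and 6.47, NGFR at 5.42 and 5.28, KRT15 at 4.33 and 3.90 and KRT5 at 2.63 and 2.70. WFDC2, TEKT1 and KRT15 were named after their values were seen, and their siP62 values lay below the median of all probe sets.

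Markers of cells that a line should lack had median differences of 0.01 (leukocyte), 0.10 (fibroblast) and 0.085 (endothelial), beside the lower SFTPB and SFTPD. The summed linear level (2 to the power of each log2 value) was 142 and 143 in the siCONTROL and siP62 arrays over 6 leukocyte markers, 86.5 and 102 over 3 fibroblast markers and 123 and 150 over 6 endothelial markers. The highest of these were CD14 (5.98 and 5.94) and TYROBP (5.05 and 5.15), THY1 (5.63 and 5.73) and LUM (5.02 and 5.49), and ESAM (5.85 and 6.15) and CLDN5 (4.84 and 5.47). Their part in the values of the 3 genes was not tested. In bulk RNA, fewer cells with a transcript and less of it per cell cannot be told apart.

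Genes with values most like those of the 3 genes were found by the Euclidean distance over the 2 arrays. Nearest to SFTPB were CTBP2 (5.65 and 5.29), RPS27L (5.64 and 5.30) and FOXD4L1 (5.66 and 5.27). Nearest to SFTPD were SREK1IP1 (5.87 and 5.26), GDA (5.89 and 5.28) and HS6ST1 (5.80 and 5.26). Nearest to LPCAT1 were ADCY3 (7.71 and 7.84), USP39 (7.74 and 7.85) and GAMT (7.70 and 7.84). Within a distance of 0.1 there were 39 genes around SFTPB, 13 around SFTPD and 92 around LPCAT1. The pair of values of SFTPD was thus shared by fewer genes than that of LPCAT1, but by several.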

How the data were processed

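The authors' deposited table holds 1 log2 value per probe set and array, written to 2 decimals, for 48226 probe sets in 2 samples. Per the submitters' processing notes, RMA and Transcriptome Analysis Console 4.0.2.15 were used; the arrays that entered RMA, and the genome build, are not stated there. Where RMA made the distributions of the arrays alike, a shift of all genes would not be seen.

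Probe sets were named from the platform annotation. There were 16098 with exactly 1 symbol, and the other 32128 are called unnamed here. All named ones matched the RefSeq genes of GRCh38.p14. The probe set with the highest mean stood for a gene. Promoter windows are RefSeq's. Differences are siP62 minus siCONTROL; each was set beside the 400 named genes of nearest mean level. Alternatives were centring on the median, a loess curve (fraction 0.3), quantile normalization, the mean over probe sets, and other filters and reference medians. The counting of changed genes was run on simulated data with larger shifts than those of the 3 genes and less noise than seen here. That run checks the code only, and the sets of 400 genes were not part of it. The calculations used Python 3.11.15 with pandas 2.3.3 and statsmodels 0.14.6.

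The 3 genes, the 19 gene lists and the rule for named genes were chosen with earlier results of these data known. The rule names the 3 genes, SQSTM1 and control genes; every gene on the array of the surfactant protein, protease, collectin and saposin lists; the 3 highest in siCONTROL and any gene differing by at least 0.5 of the lamellar body, acyltransferase, phosphatidylcholine and regulator lists; the 2 highest of the other cell type and organ lists; and the 3 genes nearest to each of the 3. Any gene named beyond it was picked with its values in view. The number of arrays limits the precision.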

Additional observations from a re-analysis of the deposited data

How the results depend on the processing

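The differences of SFTPB, SFTPD and LPCAT1 kept their direction under all 4 alternatives run for each (12 values, each moved from the deposited one by less than the robust SD of genes of like level). The mean over probe sets could not move any of them, because each gene has 1 probe set and the deposited value is repeated. The remaining alternatives move genes of like level together by small amounts, such as the 0.04 of the median difference. They could hardly reverse a direction, and they do not show how the values would repeat in further arrays. SFTPB ranged from -0.40 to -0.36, SFTPD from -0.62 to -0.58 and LPCAT1 from 0.09 to 0.14. The number of the 3 genes at least 1.5-fold lower, a count added after the data were seen, was 0 as deposited and with the mean over probe sets, and 1 (SFTPD) with the median difference of the kept genes subtracted, the loess curve or quantile normalization. Over all kept genes 126 were at least 1.5-fold lower and 164 higher, against 318 and 305 without a filter, 82 and 85 when the filter was set to the 70th percentile, 154 and 127 once the median difference was subtracted. Measured from the median of the named probe sets, the siCONTROL value was 0.31 higher for SFTPB, 0.50 for SFTPD and 2.37 for LPCAT1. Measured from the median of genes of other organs these were 2.32, 2.51 and 4.38. Leaving out a sample was not possible with 1 array per group. No paired analysis was possible because each group holds 1 array. The height of SFTPB and SFTPD over background is not known without detection calls.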
